A study of Mus musculus with 4 samples.

Results

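The genes described here make cholesterol and fatty acids from acetyl-CoA, together with the factors that switch the pathway on. The members were chosen as a list of 32 symbols, and a row counted as a member when its gene column equalled one of them. Of the 24216 rows of the authors' deposited table, 31 matched: 18 of the sterol branch, 8 of the fatty acid branch and 5 regulators. Tm7sf2, a sterol reductase, had no row of its own and shared a joined row with Vps51.

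RNA was sequenced from FDG-positive cells sorted from tooth pulp of XLacZ4 mice, with 2 libraries for molar pulp and 2 for incisor pulp. XLacZ4 is a reporter strain in which pericytes and vascular smooth muscle cells make beta-galactosidase, and FDG is a substrate that turns fluorescent when this enzyme, or a cell's own lysosomal form of it, cleaves it. Mouse molars stop growing, whereas the incisor grows throughout life, both tissues carried the same reporter, and the labels name no treatment. Tissue follows the title, source and tissue labels, although the protocol text of the incisor samples names molars. The labels give no age or sex and do not say whether libraries came from separate animals or from pooled ones. The table holds 1 value per tissue, read as FPKM from its column layout (fragments counted per transcript kilobase, scaled to sequencing depth), so no value below has a replicate error, and depth is unknown. A gene is named called when its q value in the authors' deposited table, adjusted over 18770 tested genes, lay under 0.05. The smallest p of that table, 5e-05 with q = 0.000664, was shared by 1414 rows and does not rank them.

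As background, cells build cholesterol from acetyl-CoA through mevalonate, farnesyl diphosphate, squalene and lanosterol, and they build fatty acids from the same acetyl-CoA through malonyl-CoA. Both branches are switched on by SREBP transcription factors, which the escort protein SCAP carries out of the endoplasmic reticulum when sterols are scarce and which INSIG proteins hold back when sterols are plentiful. SREBP2 is known mainly for sterol genes and SREBP1 mainly for fatty acid genes. In the tooth, growing and secreting cells need both lipids for new membrane.

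Most members were lower in molar than in incisor, and the largest differences were those of Hmgcs1 at the entry of the sterol branch and of Scd1 and Elovl6 in the fatty acid branch. By the q values of the authors' deposited table, 9 of the 31 members were called, against 16.2% of all tested genes. Of these, 8 were higher in incisor, where the background was 4.28%, and 1 was higher in molar, where it was 11.9%. The 8 were Hmgcs1, Acat2 and Dhcr7 of the sterol branch and Scd1, Scd2, Elovl6, Acly and Fads1 of the fatty acid branch, and the gene higher in molar was Mvk. Called or not, 25 of 31 members had the lower FPKM in molar, against 45.5% of the 13082 genes that reached 1 FPKM in either tissue. That number was 26 with median centring, where Stard4 changed side, and 27 with equal FPKM totals, where Scap did so as well. After adding 1 FPKM to both values, the log2 ratio of molar to incisor had a median of -0.95 over the members and 0.14 over all those genes. Since the 2 libraries of a tissue were combined, differences of handling, sort or sequencing run and differences of tooth cannot be told apart, and fewer cells of a type cannot be told apart from less RNA per cell.

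**Figure D1:**
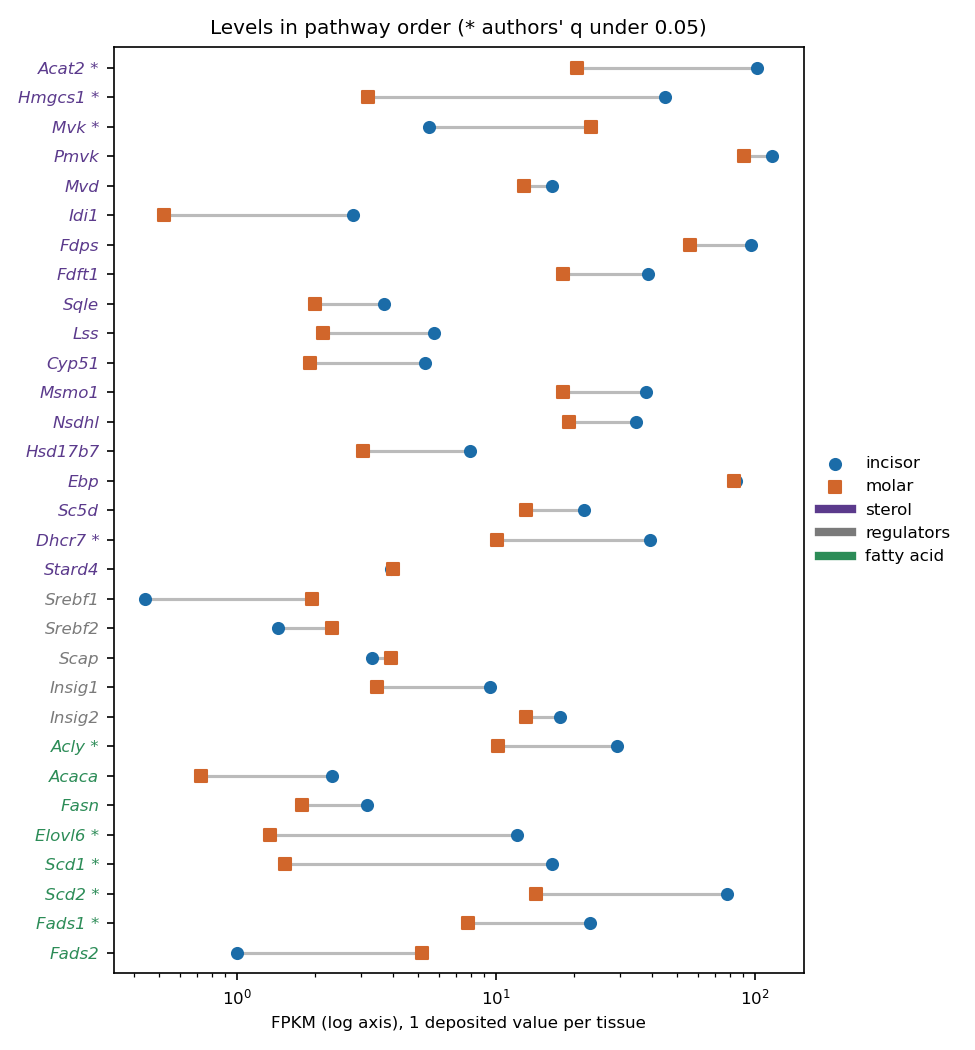
FPKM of each of the 31 members in incisor (circles) and molar (squares) on a log axis, in pathway order, with gene names coloured by branch and an asterisk where the authors' q lay under 0.05. The molar square lies left of the incisor circle for 25 genes, and the widest gaps are those of Hmgcs1 (44.7 and 3.19) and Scd1 (16.4 and 1.53).

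The segment up to farnesyl diphosphate held the largest differences of the sterol branch. Hmgcs1, the cytosolic HMG-CoA synthase that commits acetoacetyl-CoA to mevalonate (mm10 chromosome 13, 119690351 to 119708260), stood at 44.7 FPKM in incisor and 3.19 in molar. The incisor level was 14.0-fold higher (q = 0.000664, authors' deposited table). It exceeded the level of 88.1% of expressed genes (1 FPKM or more in either tissue) in incisor and of 38.5% in molar. On the other strand, the antisense gene model Gm48342 overlaps 12.1% of the Hmgcs1 exon bases. The row was not held uncertain, because only protein-coding neighbours were counted for that. Whether reads from Gm48342 entered the Hmgcs1 value is unknown. Acat2, the cytosolic thiolase that joins acetyl-CoA units one step earlier (chromosome 17, 12943042 to 12960725), measured 102 in incisor against 20.5 in molar (q = 0.00278, authors' deposited table). Its transcript shares 50.2% of its 32-base words with other genes, first among them its neighbour Acat3, so the Acat2 value is uncertain. Acat3 itself was listed at 1.64 in incisor and 0.309 in molar.

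Mvk, mevalonate kinase, the first of the enzymes that phosphorylate mevalonate (chromosome 5, 114444269 to 114460590), went the other way. It stood at 5.52 in incisor and 23.2 in molar, a 4.21-fold higher molar level (q = 0.00422, authors' deposited table). Pmvk, the kinase of the next step, was the most abundant member in both tissues, with 116 FPKM in incisor against 90.8 in molar, and did not pass the threshold (q = 0.380, authors' deposited table). Mvd, the decarboxylase after it, stood at 16.5 and 12.9 and was not called either. The Pmvk level was 2.60 times that of Hmgcs1 in incisor and 28.4 times in molar. The 7 genes from Acat2 to farnesyl diphosphate held 2 called higher in incisor, 1 called higher in molar and 4 not called. Their called share was 42.9%, against 16.2% of all tested genes. The median log2 difference of these genes was -0.77, or -0.35 without the uncertain rows Acat2, Idi1 and Fdps.

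The remaining genes of that segment had values that other loci can affect. Idi1, the isomerase that makes the building block for chain growth, stood at 2.81 in incisor and 0.524 in molar, a 5.36-fold difference (q = 0.117, authors' deposited table). It shares 22.2% of its transcript words with other genes. Fdps, farnesyl diphosphate synthase, stood at 96.5 and 56.1, and 89.6% of its words recur elsewhere, among them in Gm43738. Neither Idi1 nor Fdps was called.

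The enzymes from squalene to lanosterol were all lower in molar, none of them called. Sqle, the epoxidase that is a rate-limiting step of this stretch, stood at 3.70 in incisor and 1.99 in molar. Lss, which closes the ring to lanosterol, stood at 5.75 and 2.14 (q = 0.109, authors' deposited table). Fdft1, squalene synthase, stood at 38.6 and 18.2. Its row carries the same interval as that of Ctsb, a cathepsin gene listed at 1572 in incisor and 1083 in molar, and 18.3% of the Fdft1 exon bases lie under Ctsb on the other strand. Whether the counting used strand is not given in the sources used here, so the Fdft1 value is uncertain. Its q in the authors' deposited table was 0.642 beside a 2.12-fold difference.

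All 7 enzymes with a row between lanosterol and cholesterol had the lower value in molar. Of these 1 was called, or 14.3%, near the 16.2% of all tested genes. Dhcr7, the reductase of the last step (chromosome 7, 143823167 to 143848410), stood at 39.2 in incisor and 10.04 in molar, a 3.90-fold higher incisor level (q = 0.00994, authors' deposited table). Cyp51, the lanosterol demethylase, stood at 5.29 and 1.91, a 2.77-fold difference (q = 0.153, authors' deposited table). Hsd17b7, a ketosteroid reductase of the demethylation complex, stood at 7.91 and 3.07. Its partners in that complex differed less, with Msmo1, the methyl oxidase, at 37.9 and 18.1 and Nsdhl, the dehydrogenase, at 34.7 and 19.1. Sc5d, the desaturase that precedes Dhcr7, stood at 21.8 and 13.04. Ebp, the isomerase that acts before Sc5d, measured 84.1 in incisor against 83.03 in molar (q = 0.949, authors' deposited table). The joined row of Tm7sf2 and Vps51 stood at 8.80 and 11.5 and cannot be assigned to either gene. Stard4, a carrier that moves cholesterol between membranes, stood at 3.93 in incisor and 4.001 in molar.

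Across the sterol branch the summed FPKM was 668 in incisor and 382 in molar, 1.75 times as much in incisor. These sums include the uncertain rows Acat2 (102 and 20.5), Fdps (96.5 and 56.1), Fdft1 (38.6 and 18.2) and Idi1 (2.81 and 0.524). The FPKM total of all rows was 539574 in incisor and 815089 in molar. By the authors' deposited table, 3 of 18 genes were called with the higher value in incisor, 1 with the higher value in molar, and 14 were not called. The called share of 22.2% lay near the 16.2% of all tested genes. The branch median was -0.93, and 16 of its 18 genes were lower in molar, or 17 with median centring or equal totals.

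Promoter sequences are shown for 3 members that differ in direction or branch: Hmgcs1, lower in molar, Mvk, higher in molar, and Elovl6, lower in molar and from the other branch. Each is the 250 bases before the RefSeq start on the plus strand (GRCm38.p6), at chr13:119690101-119690350 for Hmgcs1, chr5:114444019-114444268 for Mvk and chr3:129532136-129532385 for Elovl6. Capitals mark every match, on either strand, to the sterol regulatory element TCACNCCAC, the NF-Y box CCAAT, the E-box CACGTG or the GC box GGGCGG. No 2 matches overlap in these windows.
Hmgcs1: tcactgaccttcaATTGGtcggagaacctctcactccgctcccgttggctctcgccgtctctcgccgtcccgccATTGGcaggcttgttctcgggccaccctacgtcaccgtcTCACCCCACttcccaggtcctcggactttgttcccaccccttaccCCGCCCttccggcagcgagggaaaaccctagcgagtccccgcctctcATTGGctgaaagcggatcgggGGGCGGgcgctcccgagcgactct
Mvk: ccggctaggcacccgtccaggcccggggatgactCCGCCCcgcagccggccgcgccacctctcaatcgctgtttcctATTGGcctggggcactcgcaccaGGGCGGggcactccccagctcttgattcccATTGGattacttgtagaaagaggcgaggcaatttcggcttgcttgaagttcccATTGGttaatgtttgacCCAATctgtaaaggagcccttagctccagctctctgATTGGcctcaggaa
Elovl6: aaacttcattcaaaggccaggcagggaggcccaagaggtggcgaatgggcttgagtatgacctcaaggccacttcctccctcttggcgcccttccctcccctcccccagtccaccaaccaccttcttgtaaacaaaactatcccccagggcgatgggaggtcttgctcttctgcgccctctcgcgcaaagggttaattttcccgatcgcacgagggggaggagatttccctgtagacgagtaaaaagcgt

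The Hmgcs1 window holds 1 match to the sterol regulatory element, the run TCACCCCAC that begins at position -137 from the start, with 3 NF-Y boxes and 2 GC boxes around it. The Mvk window holds none of the first but 5 NF-Y boxes and 2 GC boxes, and the Elovl6 window none of the 4 motifs. A window of 250 bases before to 50 after the start was found for 25 of the 32 listed genes. None was found for Sqle, Fdft1, Fdps and Stard4 of the sterol branch. In the fatty acid branch the called genes Scd1, Scd2 and Fads1 had none, so the shares by branch below leave them out. The sterol regulatory element matched in 1 of the 25 genes, Hmgcs1, against 1.44% of 27025 genes with a window. Only runs that fit TCACNCCAC were counted, so an element with other letters would be missed. An NF-Y box was present in 20 of 25, against 41.1% of all genes, and a GC box in 21 of 25, against 38.2%. Among the 10013 genes with a window that reached 1 FPKM in either tissue, these shares were 42.9% and 66.1%, and that of the sterol regulatory element was 1.43%. By branch, NF-Y boxes were found in 13 of 14 sterol genes with a window and a row of their own, in 4 of 5 regulators and in 2 of 5 fatty acid genes. An E-box was found in 5 of 25, against 8.09% of all genes and 11.2% of those at 1 FPKM. A match is a description of letters and not a bound site. Whether these motifs bear on the differences between the tissues was not tested.

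**Figure D2:**
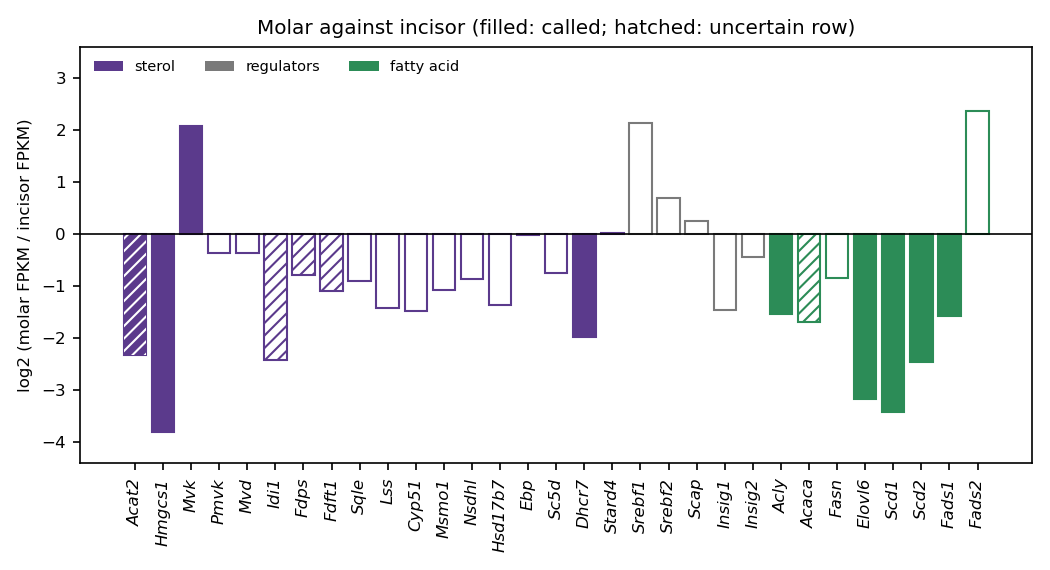
Log2 of molar over incisor FPKM for each member in pathway order, coloured by branch, with filled bars for called genes and hatching for the 5 rows whose reads other loci can share (Acat2, Idi1, Fdps, Fdft1 and Acaca). Bars below 0 mean lower in molar. The sterol bars run from -3.81 (Hmgcs1) to 2.07 (Mvk) and the fatty acid bars from -3.42 (Scd1) to 2.37 (Fads2).

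In the fatty acid branch more genes were called than not. Acly, which cleaves citrate to supply cytosolic acetyl-CoA to both branches (chromosome 11, 100476352 to 100528000), measured 29.3 FPKM in incisor against 10.1 in molar (q = 0.0180, authors' deposited table). The enzymes that build the chain itself were low and not called. Acaca, acetyl-CoA carboxylase, stood at 2.32 and 0.725, and 59.7% of its transcript words recur in another gene model, Gm5182. Fasn, fatty acid synthase, stood at 3.18 and 1.77, a 1.79-fold difference (q = 0.252, authors' deposited table).

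The elongase Elovl6 and the desaturases Scd1 and Scd2 had the largest differences toward incisor in this branch. Elovl6, which elongates palmitate to stearate (chromosome 3, 129532386 to 129638493), stood at 12.1 in incisor and 1.34 in molar, a 9.03-fold higher incisor level (q = 0.00278, authors' deposited table). Scd1, a stearoyl-CoA desaturase that makes oleate (chromosome 19, 44394450 to 44407709), stood at 16.4 and 1.53, a 10.7-fold higher incisor level (q = 0.000664, authors' deposited table). Its relative Scd2 (chromosome 19, 44293676 to 44306862), whose row ends 87587 bases before that of Scd1, stood at 77.6 and 14.2, 5.46-fold higher in incisor with the same q. Scd2 was the more abundant of the pair in both tissues, 4.74 times the level of Scd1 in incisor and 9.32 times in molar. The transcripts share 8.03% (Scd1) and 6.66% (Scd2) of their words with other genes, Scd3 and each other first, and Scd3 was listed at 0.0950 in incisor and 0.198 in molar.

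The paired desaturases of polyunsaturated fatty acids had their higher values in different tissues, and only Fads1 was called. Fads1, the delta-5 desaturase (chromosome 19, 10182888 to 10196872), measured 23.05 in incisor against 7.80 in molar (q = 0.0238, authors' deposited table). Fads2, the delta-6 desaturase, lies 81384 bases away and measured 1.002 in incisor against 5.17 in molar. Its q of 0.0604 lay just above the largest that the authors' deposited table marks as significant, 0.0600. The level of Fads1 was 23.0 times that of Fads2 in incisor and 1.51 times in molar. Whether the 2 differences differ from each other was not tested.

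Across the fatty acid branch the summed FPKM was 165 in incisor and 42.7 in molar, 3.86 times as much in incisor. By the authors' deposited table, 5 of its 8 genes were called, each with the higher value in incisor, and Acaca, Fasn and Fads2 were not called. The called share was 62.5%, against the same 16.2% of all tested genes. The branch median was -1.45, beside -0.93 in the sterol branch, so the difference between branch medians was 0.52 on the log2 scale. No test of that difference is possible with 1 value per tissue, and the branches overlap, since by the FPKM ratio Hmgcs1 lies below every fatty acid gene and Fads2 above every sterol gene.

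**Figure D3:**
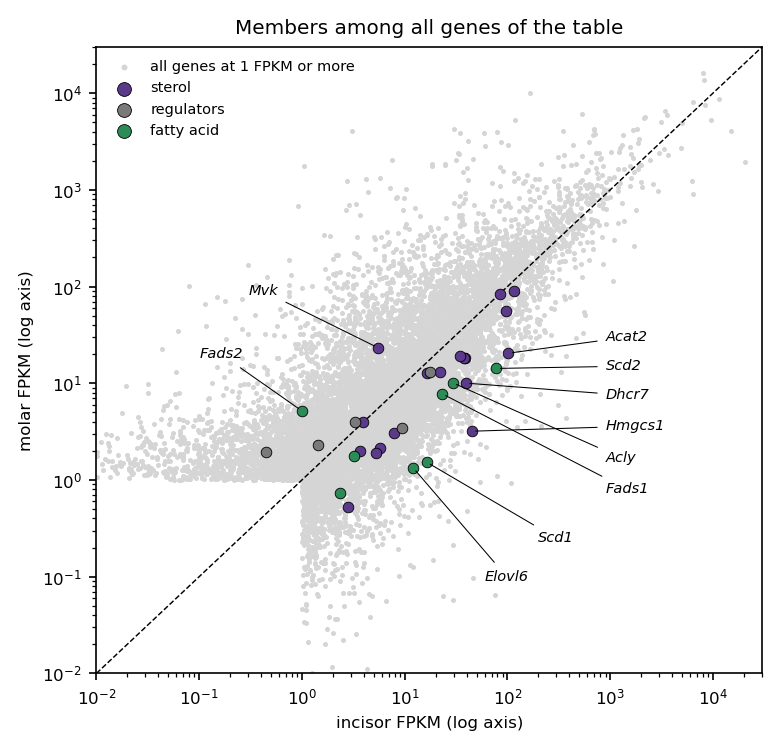
Incisor against molar FPKM, both on log axes, for genes at 1 FPKM or more in either tissue and above 0.01 in both (grey) and for the members by branch, with a dashed line of equal values. The labelled genes Hmgcs1, Scd1 and Elovl6 lie farthest below the line, at 3.19, 1.53 and 1.34 in molar, while Mvk (23.2) and Fads2 (5.17) lie above it.

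None of the 5 regulators was called, and they lay on both sides. Srebf1, which encodes SREBP1, measured 0.442 in incisor against 1.95 in molar (q = 0.192, authors' deposited table). Its row has the same interval as that of Rai1, and 1.93% of its exon bases lie under Rai1. Srebf2, which encodes SREBP2, stood at 1.44 and 2.32, and Scap at 3.31 and 3.94. Insig1, itself a textbook SREBP target that feeds back on SCAP, stood at 9.50 in incisor and 3.46 in molar, a 2.75-fold difference (q = 0.163, authors' deposited table). Insig2, the form less tied to SREBP, stood at 17.7 and 13.02, so it was 1.86 times as abundant as Insig1 in incisor and 3.76 times in molar. The regulators' median of 0.20 lay close to the 0.14 of all genes and was -0.26 with equal totals. Their transcript levels say nothing of how much SREBP protein was cleaved.

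Low molar values limit several of these folds. As a scale for low values, the 99th percentile over 1469 olfactory, vomeronasal and taste receptor genes, which serve chemical sensing, was 3.81 FPKM for molar and 0.137 for incisor. The molar values of 13 of the 31 members lay under 3.81, among them those of Hmgcs1, Scd1, Elovl6, Srebf1 and Srebf2. The molar level of such a gene, and with it the size of its fold, is uncertain.

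Among the other enzymes of the pathway, Acat1, the mitochondrial thiolase, was called higher in molar, at 24.3 FPKM in incisor and 102 in molar (q = 0.000664, authors' deposited table), while its cytosolic relative Acat2 was called higher in incisor. Ggps1, which makes the geranylgeranyl diphosphate used to anchor proteins to membranes, was not called, at 17.2 and 11.2 (q = 0.271, authors' deposited table).

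Genes that handle sterols after synthesis were called in both directions. Of 9 genes for SREBP cleavage and sterol-regulated degradation 3 were called, or 33.3%, against 16.2% of all tested genes. Erlin2, an endoplasmic reticulum membrane protein, was higher in incisor (26.8 and 5.65). Mylip, a ubiquitin ligase (9.13 and 23.5), and Pgrmc1, a membrane heme protein, (14.8 and 81.3) were higher in molar. Mbtps1, the protease that makes the first cut in SREBP, was not called, at 24.7 and 15.5. Among genes for uptake and transport, Lipa, the lysosomal lipase that frees cholesterol from its esters, was higher in incisor (87.1 and 34.6), and Stard3, a late endosomal cholesterol carrier, was higher in molar (7.996 and 46.0). Npc2, which hands lysosomal cholesterol on, was the most abundant of that list and not called, at 264 and 387.

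In the list of LXR, efflux and esterification genes, both cholesterol exporters were higher in incisor. Abcg1 stood at 65.7 in incisor and 9.86 in molar (q = 0.000664), and Abca1 at 8.67 and 3.58 (q = 0.0450), in the authors' deposited table. Cyp27a1, which makes an oxysterol, was higher in molar (4.42 and 19.4). Apoe, the lipid carrier that macrophages also secrete, was the most abundant gene of any lipid list, at 1306 and 2909, and was not called. Pltp, a phospholipid transfer protein, stood at 10.6 and 132 and was not called either (q = 0.0890). The Pltp value is uncertain, since 19.3% of its exon bases lie under Ctsa, the gene of a lysosomal protease, on the other strand. The list held 3 called of 10, or 30%, against 16.2% of all tested genes. Its median was 0.79, or 0.37 without Pltp and Lpcat3, an acyltransferase gene whose row is also uncertain.

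Called genes of the later elongation steps and of stored lipid were higher in molar, though each list's share of called genes (21.1% and 20%) lay near the 16.2% of all genes. Of 19 tested further genes of fatty acid synthesis and elongation 4 were called, all higher in molar, namely Tecr (254 and 611), Hsd17b12 (20.3 and 66.9) and Hacd2 (1.03 and 4.33), which carry out the reduction and dehydration steps of each elongation round, and the elongase Elovl7 (0.0260 and 0.782). The value of Elovl7 in molar lies under the 3.81 of chemoreceptor genes. Elovl1, an elongase of very long chains, was not called, at 147 and 131, and the list median was 0.13. Of 10 genes of glycerolipid synthesis and lipid droplets 2 were called, both higher in molar: Pnpla2, the lipase that starts triglyceride breakdown (0.354 and 22.9), and the droplet coat gene Plin3 (12.5 and 60.1). Plin2, the other abundant droplet coat gene, stood at 843 and 654 and was not called. Of 12 genes of fatty acid oxidation 3 were called, or 25%, against the same 16.2%. Cpt2 (3.01 and 10.9) and Acadl (5.05 and 19.98) were higher in molar and Etfdh (36.4 and 10.3) was higher in incisor. Acadvl (43.6 and 61.4) and Acadm (51.0 and 46.1) were not called. The Acadvl value is uncertain, since 42.9% of its exon bases lie under Dvl2. The median of the oxidation list was 0.11, and both this and the 0.13 of the elongation list turned negative with median centring, with equal totals or without uncertain rows.

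**Figure D4:**
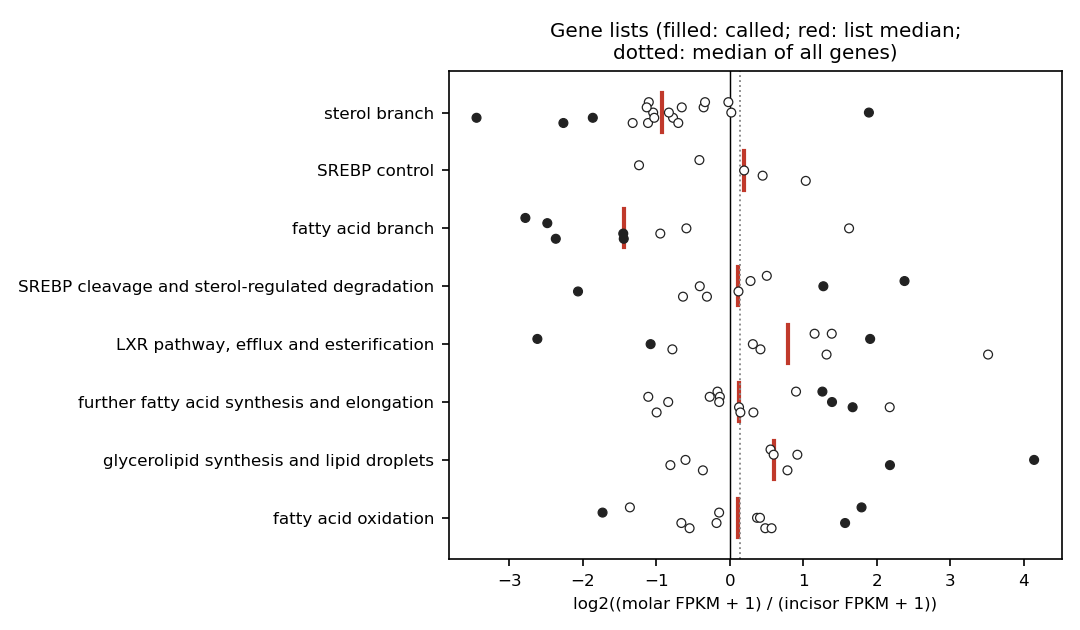
Log2 ratio of molar to incisor after adding 1 FPKM to both, for each gene at 1 FPKM or more in either tissue, by list, with filled points for called genes, a red line at each list's median and a dotted line at the median of all such genes (0.14). The sterol and fatty acid branches have medians of -0.93 and -1.45, whereas fatty acid oxidation (0.11) and further elongation genes (0.13) lie near the dotted line.

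Markers of several cell types also differed between the tissues, some toward incisor like most members and others toward molar. Of all tested genes, 4.28% were called higher in incisor and 11.9% higher in molar. The sorted cells carried mural markers in both tissues, with a summed FPKM over 8 pericyte and smooth muscle genes of 825 in incisor and 315 in molar, and 3 of the 8 were called higher in incisor and 1 higher in molar. The 8 dental epithelial markers summed to 23472 in incisor and 2631 in molar, most of it Amelx (20642 and 1937), with 7 called higher in incisor. Of 6 proliferation genes 2 were called higher in incisor, with sums of 472 and 398. Toward molar lay the endothelial markers, with sums of 10.2 and 233 and 6 of 6 called, and the early stress genes, with sums of 410 and 4641 and 5 of 6 called. Macrophage markers summed to 4273 and 6473, with 1 of 6 called in each direction. The myelin markers summed to 300 and 293, nearly all of it Pmp22 (276 and 268), and Sox10, which defines Schwann cells, stood at 0.0105 and 0.112. Adipocyte markers summed to 8.84 and 21.3, most of it Fabp4 (7.68 and 20.2, not called), with Plin1, Cidec and Lep listed at 0 in incisor and Pck1 listed at 0 in molar. Of the 4 tested adipocyte markers 1 was called, Lep, with 0.880 in molar, while Adipoq had the higher value in incisor (1.11 and 0.0511, not called). The part of any of these cell types, or of the stress response, in the lipid gene differences was not tested.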

How the data were processed

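The 2 molar and 2 incisor pulp libraries of sorted FDG-positive cells were compared through the single table of the series. Per the submitters' processing notes, reads were handled with Trim Galore, HISAT2 and edgeR on mm10. The tool that wrote the table, its library scaling and its annotation are not recorded in the labels or headers. Per the file headers, the deposited columns hold 1 value per tissue, a log2 fold change of molar over incisor, a signed test score, and a p-value and q-value. The headers do not name the unit of the deposited tissue values, which was taken as FPKM from the column layout, that of a Cuffdiff gene table. The deposited log2 value equals log2 of the FPKM ratio with no pseudocount, within 3.96e-05. Conditions were tied to tissues through the description labels.

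Members and gene lists were chosen with earlier results of these data known. No test was fitted, since no value per library was used, and calls are the authors' q under 0.05. List medians used a pseudocount of 1 FPKM, which understates differences of low genes, and a minimum of 1 FPKM in either tissue. Named from each further list were called genes and the 2 with the highest mean FPKM. Some genes of the lists of further sterol enzymes and of cholesterol uptake are not reported here, so these lists are given without counts or medians. Starts were moved by 1 base to 1-based mm10 coordinates. Of 24216 rows, 231 hold more than 1 gene symbol and entered no list. For repeated symbols the row with the highest mean was kept. A row was held uncertain when over 20% of the 32-base words of its longest RefSeq-matched GENCODE M21 transcript recur in other genes, or over 10% of its exon bases lie under a protein-coding neighbour. Promoter windows came from RefSeq. Simulated data tested only medians of larger gene sets without a pseudocount and the search for planted sterol regulatory elements. Work was done in Python 3.11.15 with pandas 2.3.3.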

Additional observations from a re-analysis of the deposited data

How the results depend on the processing

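No paired analysis was possible because the table holds 1 combined value per tissue, and for the same reason no replicate could be left out in turn. The counts of called members stayed within 1.5 times of 9 in all, 4 in the sterol branch and 5 in the fatty acid branch under the alternatives tried, with 1 exception: at q under 0.01 the fatty acid branch held 3, without Acly and Fads1. A further minimum of 2-fold could not change these counts, since the smallest log2 difference of any called gene was 1.10 in size. Leaving out the 5 uncertain rows, an alternative added after seeing the data, gave 8 members and 3 sterol genes. No median of all members or of the sterol or fatty acid branch changed sign under these alternatives. Removing the minimum of 1 FPKM could not change these medians, since all 31 members reached it. The same settings, added after seeing the data, were run on the other medians. The regulators' median was -0.82 with a minimum of 5 FPKM and -0.26 with equal totals. That of the further elongation genes was -0.014 with centring, -0.42 with equal totals and -0.13 without uncertain rows, and that of fatty acid oxidation was -0.027, -0.46 and -0.16 in turn. The median over all members was -1.06 with a pseudocount of 0.1 FPKM, -0.57 with 5 FPKM, -1.10 with a minimum of 5 FPKM, -1.09 with median centring, -1.39 with equal FPKM totals and -0.76 without uncertain rows. The sterol median was -0.58 with a pseudocount of 5, -1.07 with centring, -1.43 with equal totals and -0.76 without uncertain rows. The fatty acid median was -1.55 and -1.16 with pseudocounts of 0.1 and 5, -1.91 with a minimum of 5 FPKM, -1.59 with centring and -1.97 with equal totals. The difference between branch medians was 0.88 with that minimum and 0.69 without uncertain rows. The causes of these shifts were not tested. FPKM values carry no depth, so the precision of low genes is unknown.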
